A study of Mus musculus with 10 samples.

Results

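The serotonin receptors described here are 10 genes, Htr1a, Htr1b, Htr1d, Htr2a, Htr2c, Htr3a, Htr4, Htr5a, Htr6 and Htr7, found through every non-control probe whose gene name on the array is a member. That rule took 13 of 41174 probes and 10 of 27339 gene names, with 3 probes for Htr2c, 2 for Htr4 and 1 for each of the other receptors. Total RNA of hippocampus from 10 adult ICR mice, all labelled male, was hybridised to 1-colour Agilent arrays. The 5 NC arrays came from offspring of dams that got corn oil alone during pregnancy. The 5 HE arrays came from offspring of dams that were dosed by mouth with estradiol valerate in corn oil, daily between E5.5 and E11.5, with 100 µg per kg each day. The labels name no transgene or engineered allele in either group. The labels do not give litters or the age in days, and they do not say whether each sample is 1 animal of its own dam. A p-value therefore measures the spread between these samples, and littermates within a group would share a dam. The question set by the design is whether estradiol excess in the dam goes with other transcript levels in the offspring's hippocampus.

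Serotonin reaches the hippocampus in axons from the raphe nuclei of the brainstem and acts on a family of receptors of which all but the channel subunit Htr3a are coupled to G proteins. Htr1a, Htr1b and Htr1d couple to Gi and Go, which lower cyclic AMP and open potassium channels, and Htr5a is also placed with this class. Htr2a and Htr2c couple to Gq, which activates phospholipase C. Htr4, Htr6 and Htr7 couple to Gs, which raises cyclic AMP, and Htr3a is the subunit of a cation channel that serotonin opens directly.

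Each level below is the log2 of the scanner's processed signal minus the log2 of the array's 75th percentile, so that 0 is the level of that percentile and a difference of 1 is a 2-fold change. These levels depend on the probe and are compared only between arrays, not between receptors. The 75th percentile lay between 898 and 1277 scanner units, 70.3% to 78.9% of the probes were well above background on an array, and no spot was saturated. The groups were spread unevenly over 3 slides: NC 1 to NC 4 were on slide 1, HE 3 to HE 5 on slide 3, and the remaining arrays (NC 5 with HE 1 and HE 2) shared slide 2. The sex label was not borne out on 7 arrays: Xist, the transcript of the inactive X chromosome of females, was at -7.25 to -4.51 on NC 5, HE 4 and HE 5 and at 3.21 to 4.45 on the remaining 7 arrays. Values without the 3 arrays of low Xist are therefore given too. In that set no slide held both groups, so group and slide cannot be told apart there. On slide 2 the NC array had low Xist and the HE arrays had high Xist. Group and Xist pattern therefore cannot be told apart within slide 2, nor in a fit with slide as a fixed block.

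Htr6 is the receptor whose values in the processed signal separated the groups, and its probe lies in coding sequence. Its 60 bases are shown because the result rests on this probe alone. They map to chr4:138617683-138617742, on the minus strand of mm9 according to the scanner file. No exon annotation of that build was used here. Capitals mark bases 37 to 51, which code for the NPxxY motif, a conserved stretch near the end of the last membrane helix of many G protein-coupled receptors.
Htr6: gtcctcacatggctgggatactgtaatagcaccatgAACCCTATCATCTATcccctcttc
Codons of that motif, searched on the sense strand in frames without a stop codon, were held by 1 of the 13 receptor probes and by 106 of all 41174 probes (0.257%). The Htr2a probe is shown because it crosses a splice junction: its position in the file, chr14:75044950-75105415 on the plus strand of mm9, spans 60466 bases for 60 bases of probe.
Htr2a: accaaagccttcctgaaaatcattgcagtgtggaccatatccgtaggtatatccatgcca

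Of the 13 receptor probes, 9 were well above background on all 10 arrays. The Htr1d probe was above background on 3 NC and 4 HE arrays. Neither probe of Htr4 was above background on any array, so only an upper bound on its signal is known here. The same held for 1 of the 3 Htr2c probes. Mean spot brightness of the 2 Htr4 probes, 41.5 to 54.5 scanner units, lay against local backgrounds of 41 to 49 units. Probes entered the tests if 3 or more arrays of a group had them well above background, which left 10 receptor probes and 9 receptor genes among 30981 probes and 20068 genes.

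HE was compared with NC by limma on all 20068 genes, with Benjamini-Hochberg adjustment and a threshold of 0.05. Of the 9 receptors measured, 1 passed and was higher in HE, and none was lower. Over all genes 20.4% passed, 6.48% higher and 13.9% lower in HE. Htr7 was lower in HE and did not pass (limma, unadjusted p = 0.0422, adjusted p = 0.121). The median log2 fold change was 0.39 over the 9 receptors and -0.06 over all genes, and the receptor median turned to -0.89 under the normexp background correction and to -0.09 with local background subtracted. With 1 value per probe, 1 of 10 receptor probes passed, against 23.1% of all probes in either direction, 7.70% higher and 15.5% lower. These are bulk samples, in which fewer cells of a type and less RNA per cell cannot be told apart.

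**Figure D1:**
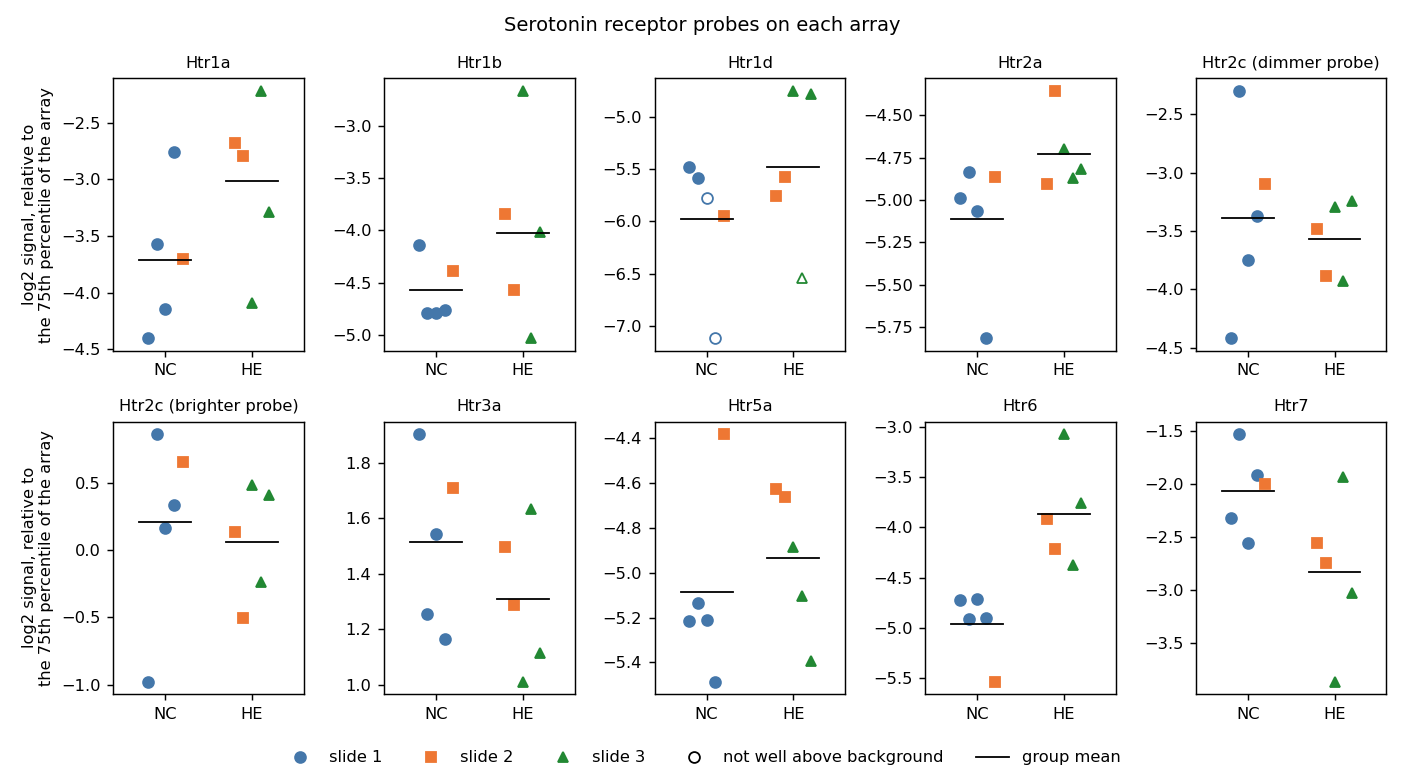
Level of each of the 10 receptor probes that entered the tests on each array, as log2 signal relative to the array's 75th percentile. Colour and shape give the slide, open symbols mark probes not well above background, and lines mark group means. The groups do not overlap for Htr6, where the HE arrays sit between -4.37 and -3.07 and the NC arrays between -5.54 and -4.72, and they overlap in the other 9 panels.

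Among the Gs-coupled receptors, Htr6 rose in HE. It is found almost only in the brain, in forebrain neurons that include hippocampal pyramidal cells and, at high levels, striatal neurons. On the NC arrays its level was -4.73, -4.92, -4.72, -4.91 and -5.54. On the HE arrays it was -3.92, -4.21, -3.07, -4.37 and -3.76. Each HE array lay above every NC array, and HE 3 was the highest and NC 5 the lowest. Over all genes the groups did not overlap for 16.5%, with HE above NC for 5.57% and below for 11.0%. The mean was -4.96 ± 0.34 (SD, n = 5) in NC and -3.87 ± 0.51 (SD, n = 5) in HE. The log2 fold change was 1.09 ± 0.25 (SE), with a 95% interval of 0.54 to 1.65, which is 2.13-fold (limma, adjusted p = 0.0182).

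The Htr6 spots were dim, so the background matters to their log2 values. The mean spot brightness before subtraction was 72.0, 72.1, 85.2, 73.4 and 61.0 units on the NC arrays. It was 118.9, 97.5, 167.7, 96.3 and 125.2 units on the HE arrays. The local background around the same spots was 42 to 51 units on all 10 arrays. The groups did not overlap in raw brightness, which is not scaled: the 75th percentile was 898 to 1186 units on the NC arrays and 1140 to 1277 on the HE arrays. When that local background was subtracted and 50 units were added before the log, the log2 fold change was 0.44 ± 0.16 (SE; limma, adjusted p = 0.0617), in a fit in which 26.8% of all genes passed. The groups overlapped on that scale, relative to the 75th percentile, where HE 4 was at -3.71 and NC 1 at -3.69.

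**Figure D2:**
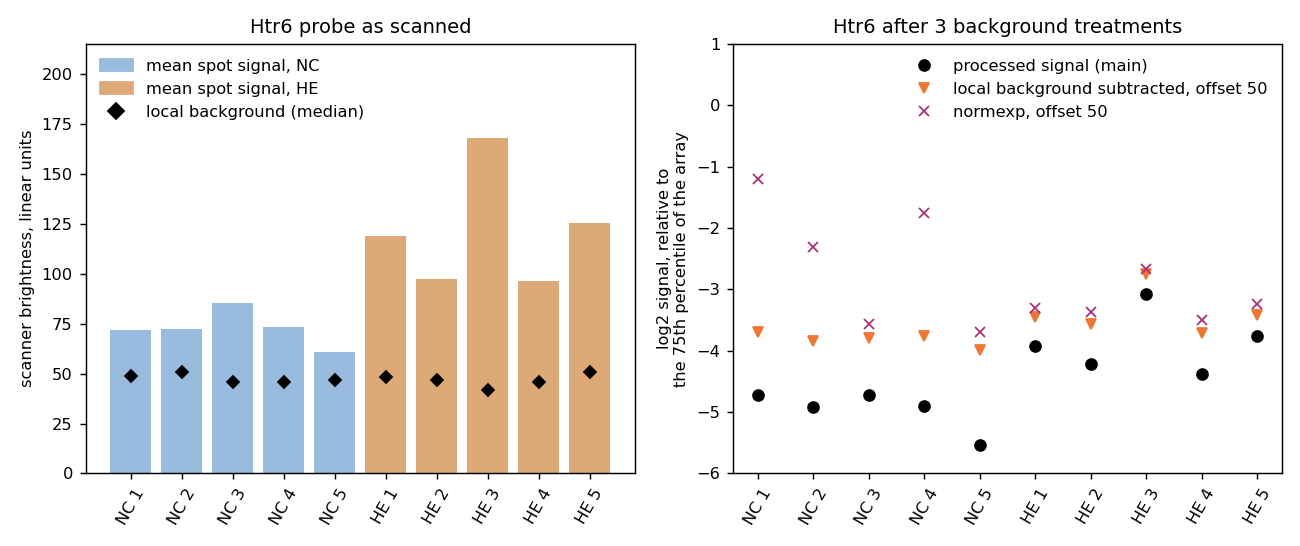
Left, mean brightness of the Htr6 spot (bars) and its local background (diamonds) on each array, in scanner units from 0. Right, the log2 level of Htr6 on the same arrays after 3 treatments of the background; the normexp correction puts NC 1, NC 2 and NC 4 at -1.20, -2.31 and -1.76, while the processed signal puts all NC arrays below all HE arrays.

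The normexp correction, which models background and signal together, turned the direction of Htr6 to -0.71 ± 0.46 (SE; limma, adjusted p = 0.227), where 44.2% of all genes passed. Its fitted background mean was -499.4, -168.5 and -320.2 units on NC 1, NC 2 and NC 4, and between -18.8 and -13.5 units on the other 7 arrays. After normexp, Htr6 was at -1.20, -2.31 and -1.76 on those 3 NC arrays and between -3.69 and -2.66 on the other 7. The cause of the turned direction was not tested. Without the same 3 arrays the log2 fold change of Htr6 in the processed signal was 1.26 ± 0.38 (SE; limma, adjusted p = 0.0777, with 9.57% of all genes passing).

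Within slide 2, the only slide with both groups, Htr6 was at -5.54 on NC 5 and at -3.92 and -4.21 on HE 1 and HE 2. The difference there was 1.47, and with slide as a fixed block it was 1.47 ± 0.44 (SE; limma, adjusted p = 0.115, with 1.02% of all genes passing). NC 5 is the lowest NC array, and that block leaves it as the only NC array set against HE on its own slide. NC 5 had low Xist and HE 1 and HE 2 had high Xist, so this difference is also one of Xist pattern. With slide as a random block the value was 1.08 (limma, adjusted p = 0.016, with 22.1% passing). Among the 7 arrays with high Xist, which leave out NC 5, the difference was 1.08 ± 0.26 (SE; limma, adjusted p = 0.0811, with 0.384% passing). On the 3 arrays with low Xist, NC 5 was at -5.54, HE 4 at -4.37 and HE 5 at -3.76. With the Xist pattern as a covariate the log2 fold change was 1.19 (limma, adjusted p = 0.0119, with 22.4% passing). HE was above NC in each of these comparisons. Over all 28 other settings tried, HE was above NC in 26, Htr6 passed in 20, and its adjusted p lay between 0.0119 and 0.489. These settings are not independent of one another, so the counts do not measure robustness. Several keep 1.09 by construction, 10 leave out a single array, and the value table closely follows quantile normalization.

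Htr7, the other Gs-coupled receptor with a measured level, is known from thalamus and hippocampus and from work on circadian timing. Its level was -2.32, -1.53, -2.55, -1.91 and -1.998 on the NC arrays. On the HE arrays it was -2.56, -2.74, -3.86, -1.94 and -3.03. The groups overlapped, with HE 3 below all other arrays and HE 4 within the NC range. The log2 fold change was -0.76 ± 0.33 (SE), with a 95% interval of -1.49 to -0.03 and an unadjusted p of 0.0422 that did not pass after adjustment (limma, adjusted p = 0.121). The difference was -0.65 within slide 2 and -0.97 among the arrays with high Xist. It was negative in all 28 other settings tried, which are not independent of one another, and lay between -1.16 and -0.46. It passed in 1 of them, the normexp correction, at -1.03 (limma, adjusted p = 0.029), and its adjusted p was otherwise as high as 0.594.

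The 3 receptors of the Htr1 class had positive differences that did not pass and that were negative under normexp, and for Htr1d also with local background subtracted. Among the 7 arrays with high Xist the differences were 0.53 for Htr1a, 0.93 for Htr1b and 0.63 for Htr1d (limma, adjusted p = 0.531, 0.225 and 0.41). Htr1a is the inhibitory receptor of hippocampal pyramidal and granule cells and the autoreceptor on raphe cell bodies. Its level was -4.40, -3.57, -4.14, -2.76 and -3.70 on the NC arrays. It was -2.68, -2.80, -4.09, -2.22 and -3.29 on the HE arrays. Both groups spread over more than 1.5 log2 units, with NC 4 high and HE 3 low for their groups. HE minus NC was 0.70 ± 0.38 (SE) on the log2 scale, with a 95% interval of -0.16 to 1.55 (limma, adjusted p = 0.215).

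Htr1b is a receptor on axon terminals that limits the release of serotonin and of other transmitters. Its NC levels were -4.14, -4.79, -4.79, -4.76 and -4.39. Its HE levels were -3.84, -4.57, -2.66, -5.03 and -4.01. HE 3 stood above all other arrays and HE 4 below them. Its log2 fold change was 0.55, with a 95% interval of -0.30 to 1.40 (limma, adjusted p = 0.321), and it was 0.21 without HE 3.

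Htr1d, also a receptor of axon terminals, was near the detection limit. Its NC levels were -5.48, -5.58, -5.77, -7.12 and -5.95, of which those of NC 3 and NC 4 were not well above background. Its HE levels were -5.76, -5.57, -4.75, -6.54 and -4.78, and that of HE 4 was not well above background. The groups overlapped, and the log2 fold change was 0.50, with a 95% interval of -0.40 to 1.40 (limma, adjusted p = 0.396).

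Htr5a, which is expressed in forebrain neurons and whose role is less known, was at -5.22, -5.13, -5.21, -5.49 and -4.38 on the NC arrays. On the HE arrays it was at -4.62, -4.66, -4.89, -5.10 and -5.39. NC 5 was the highest of all 10 arrays, and the other 4 NC arrays lay below 4 of the 5 HE arrays. A log2 fold change of 0.15 was found, with a 95% interval of -0.33 to 0.64 (limma, adjusted p = 0.653). Its sign changed within slide 2, where the difference was -0.26, and among the arrays with high Xist, which leave out NC 5, it was 0.54 (limma, adjusted p = 0.0811).

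Of the Gq-coupled receptors, Htr2a is the main target of hallucinogens and of several antipsychotic drugs. The junction-spanning Htr2a probe was at -4.99, -4.84, -5.07, -5.82 and -4.87 on the NC arrays. It was at -4.90, -4.36, -4.70, -4.87 and -4.82 on the HE arrays. NC 4 lay below all others, HE 2 lay above all others, and the rest overlapped. Its log2 fold change was 0.39 ± 0.19 (SE), with a 95% interval of -0.05 to 0.82 (limma, adjusted p = 0.178). It was 0.21 without NC 4 and 0.52 among the arrays with high Xist (limma, adjusted p = 0.26 and 0.252). After quantile normalization it was 0.69, which passed (limma, adjusted p = 0.016), as did 21.4% of all genes. Its adjusted p lay between 0.016 and 0.956 over 28 settings.

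Htr2c, which is X-linked and whose transcript is edited and abundant in choroid plexus, had 2 probes above background. The brighter probe was at -0.98, 0.87, 0.17, 0.34 and 0.66 on the NC arrays and at 0.13, -0.50, 0.49, -0.24 and 0.41 on the HE arrays. The dimmer probe was at -4.42, -2.30, -3.75, -3.37 and -3.10 on the NC arrays and at -3.48, -3.88, -3.29, -3.93 and -3.24 on the HE arrays. On both probes NC 1 was the lowest array and NC 2 the highest, and all HE arrays lay between them. HE minus NC was -0.15 on the log2 scale for the brighter probe, with a 95% interval of -0.90 to 0.60 (limma, adjusted p = 0.781). It was -0.18 for the dimmer one (limma over probes, adjusted p = 0.736). Among the arrays with high Xist the brighter probe gave -0.06 (limma, adjusted p = 0.947).

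Htr3a, the channel subunit found in interneurons that also carry Cck, Vip or Reln, was at 1.91, 1.26, 1.54, 1.16 and 1.71 on the NC arrays. On the HE arrays it was at 1.497, 1.29, 1.01, 1.64 and 1.11. The groups overlapped over most of their range, with NC 1 the highest and HE 3 the lowest array. The log2 fold change was -0.21 ± 0.17 (SE), with a 95% interval of -0.59 to 0.18 (limma, adjusted p = 0.413), and it was -0.20 among the arrays with high Xist (limma, adjusted p = 0.579).

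**Figure D3:**
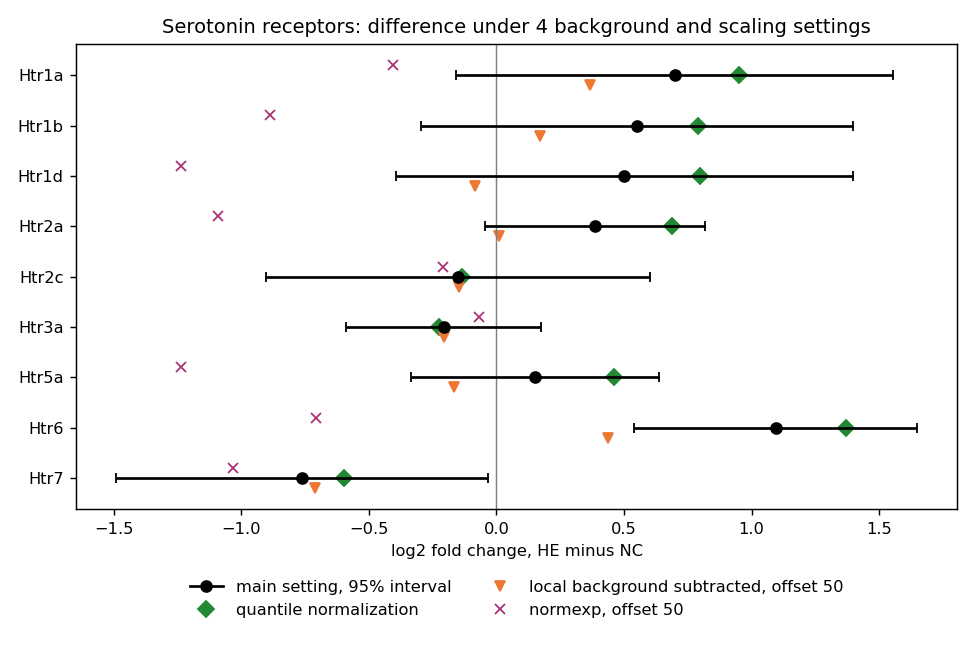
Log2 fold change (HE minus NC) of the 9 measured receptors in the processed signal, with its 95% interval, and under 3 other treatments of background and scale. The interval of Htr6 (0.54 to 1.65) and that of Htr7 (-1.49 to -0.03) leave out 0; the normexp values of Htr1a, Htr1b, Htr1d, Htr2a, Htr5a and Htr6 lie on the other side of 0.

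Some receptors varied together and others in opposite directions within the groups, taken as deviations from the group means over the 10 arrays. Pearson's r was 0.85 between Htr1a and Htr7 and 0.74 between Htr6 and Htr1b. It was lowest between Htr1a and Htr1d, at -0.895, where Htr1d was near the detection limit, and -0.80 between Htr7 and Htr1b. It was -0.78 between Htr6 and Htr7, -0.69 between Htr6 and Htr1a, and -0.76 between Htr1a and Htr1b. These are descriptions over arrays that share their dissection, labelling and slides. On HE 3, Htr6, Htr1b and Htr1d were at their highest of all 10 arrays, and Htr7 was at its lowest.

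The genes most like Htr6 in these deviations, among 15285 genes with an ordinary symbol, were Btg3 (r = 0.98), Fam120a (r = 0.974) and Adra2c (r = 0.972), an adrenergic receptor. Those most like Htr7 were Elavl4 (r = 0.97), Ndfip1 (r = 0.96) and Trip13 (r = 0.947). Those most like Htr2a were Duxbl1 (r = 0.94), Sox12 (r = 0.934) and Slc26a6 (r = 0.934). Values of this size are the highest of 15285 over 10 arrays and have no test.

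Markers of tissue next to the hippocampus differed between arrays, and their levels stand here as sums over a list, in multiples of the 75th percentile. The 9 striatal markers, among them Drd1, Drd2 and Adora2a, summed to 255, 135, 179, 59.3 and 89.1 on the NC arrays and to 224, 140, 474, 65.9 and 313 on the HE arrays. None of the 9 passed the test, and their median log2 fold change was 0.65. Within HE, the arrays had the same order by summed striatal level as by Htr6, from HE 3 down through HE 5, HE 1 and HE 2 to HE 4. Within NC, the order was not the same: NC 4 had the lowest sum, at 59.3, and NC 5 the lowest Htr6, at -5.54. NC 1 and NC 3 had the highest sums, and their Htr6 levels, -4.73 and -4.72, were the highest and nearly equal. HE 4 had a sum of 65.9, below that of 4 NC arrays, and an Htr6 level of -4.37, above all 5. With the striatal level as a covariate the log2 fold change of Htr6 was 0.87 ± 0.18 (SE; limma, adjusted p = 0.025), that of Htr1a was 1.11 ± 0.18 (SE; limma, adjusted p = 0.0163), and that of Htr1b was 0.21 (limma, adjusted p = 0.634). Over all genes 12.6% passed in that fit, which was added after the data were seen. Htr1a passed in 1 of 28 settings, this one, and its adjusted p was otherwise as high as 0.885. The part of striatal tissue in these receptor values was not tested, since the covariate was chosen with them known.

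**Figure D4:**
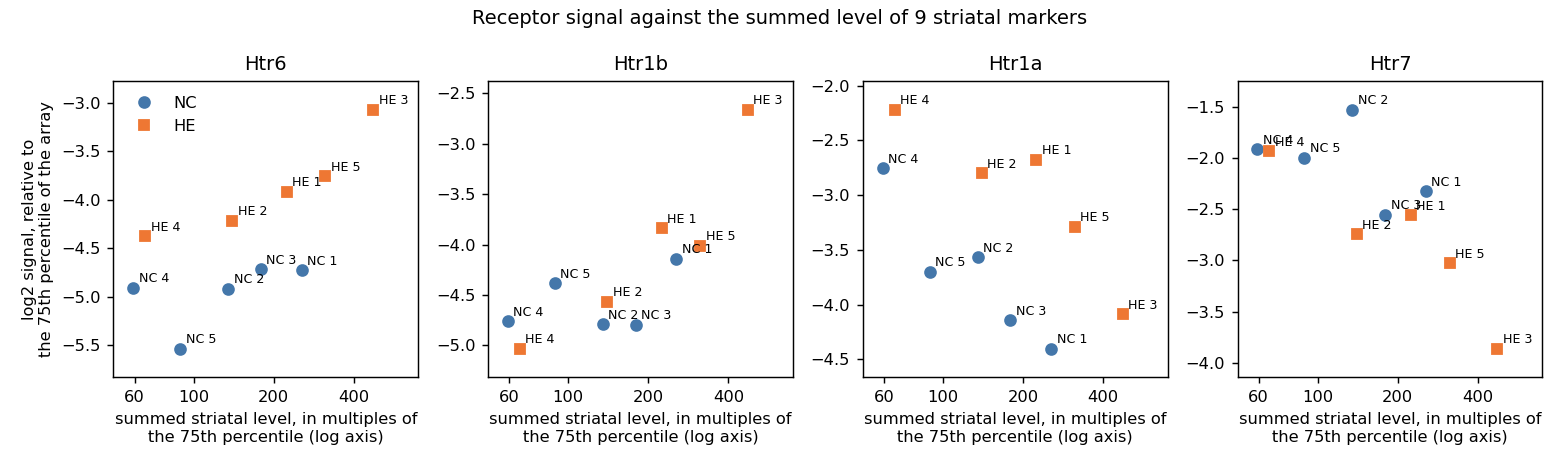
Level of Htr6, Htr1b, Htr1a and Htr7 (log2 relative to the 75th percentile) on each array against the summed level of 9 striatal markers (log axis). HE 3 has the highest sum, 474, and there Htr6 and Htr1b are highest and Htr7 is lowest. For Htr6 every HE array lies above every NC array. The part of striatal tissue was not tested.

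The thalamic and habenular markers, among them Tcf7l2, Tnnt1 and Lef1, were lower in HE for 11 of 16. They summed to 44.8 to 98.6 on the NC arrays and to 17.0 to 29.3 on the HE arrays. The groups do not overlap in this sum, so it and the group cannot be told apart here. With it as a covariate the log2 fold change of Htr6 was 0.91 ± 0.57 (SE; limma, adjusted p = 0.489), in a fit in which 0.0199% of all genes passed. The log2 fold change of Htr7 was -1.16 ± 0.74 in the same fit (SE; limma, adjusted p = 0.499).

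Other marker lists differed as well, and their part in the receptor values was not tested. The counts that follow stand against 6.48% of all genes higher and 13.9% lower in HE. Of 10 CA1 markers 4 rose and none fell, among them Man1a by 0.85 and Pou3f1 by 1.36 (limma, adjusted p = 0.00688 and 0.0114; 0.0901 and 0.0542 with slide as a fixed block), while Dcn was at -1.20 (limma, adjusted p = 0.0887), and their sum was 34.1 to 44.1 on the NC arrays and 50.02 to 67.1 on the HE arrays, without overlap, as for Htr6. Of 11 markers of Cck, Vip and Reln interneurons, the cells that carry Htr3a, 4 rose, with sums of 89.9 to 130 in NC and 126 to 183 in HE, although Cck, Vip and Reln did not pass themselves (limma, adjusted p = 0.247, 0.0905 and 0.0881). Choroid plexus, which is rich in Htr2c, had 0 of 11 markers passing and sums of 4.96 to 45.4 in NC and 4.30 to 33.0 in HE. Its highest sum was on NC 3, where the brighter Htr2c probe was at 0.17. Oligodendrocyte markers fell for 10 of 13, with sums of 463 to 592 in NC and 265 to 347 in HE, and astrocyte markers for 2 of 9, with sums of 199 to 221 and 156 to 177. In HE 1 of 11 dentate granule markers rose (16.0 to 19.3 in NC, 19.6 to 33.7 in HE), none of 11 CA2 and CA3 markers passed (164 to 291, 169 to 315), 2 of 16 neocortical and subicular markers rose (39.4 to 64.2, 60.2 to 77.1), and 2 of 12 Pvalb and Sst interneuron markers rose and 3 fell (103 to 141, 110 to 188). Midbrain dopamine markers fell for 4 of 10 (5.24 to 64.9 in NC, 3.92 to 4.96 in HE), hypothalamic markers for 2 of 8 (8.17 to 23.3, 1.98 to 11.47) and liver markers for 4 of 9 (1.54 to 19.0, 0.41 to 13.7). The liver list shares Ttr with the choroid plexus list, and Ttr, at 4.24 on NC 3 and 3.77 on HE 2, makes nearly all of the highest liver sum in each group. Alb itself stood out on NC 1, NC 2 and NC 4, where it was at 0.50, 0.48 and -0.20, against -8.77 to -4.80 on the other 7 arrays.

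The raphe serotonin neuron list bears on Htr1a as an autoreceptor. Slc6a4, the serotonin transporter, was at 1.04 on NC 2 and -1.45 on NC 5, and at -8.01 to -4.78 on the other 8 arrays. Tph2, the rate-limiting enzyme of serotonin synthesis in neurons, was at 0.35 and -1.77 on the same NC arrays and at -5.64 to -3.92 on the others. Hippocampus holds raphe axons but no raphe cell bodies. Of the 9 genes of the list 2 fell, Gata2 and Gata3, and Gata3 was above background on NC arrays only. Tph2, Slc6a4 and Fev did not pass (limma, adjusted p = 0.387, 0.145 and 0.493). The 9 genes summed to 3.03 to 20.8 in NC and 3.03 to 3.76 in HE. This sum is not particular to raphe neurons, since 3 of the 9 genes are also on the dopamine list. On NC 4 it was 13.7, with Tph2 at -5.20, Slc6a4 at -6.49 and Ddc at 2.94. Htr1a was at -3.57 on NC 2 and -3.70 on NC 5, which is in the middle of the NC range. The part of raphe tissue in the Htr1a values was not tested.

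Other genes of the serotonin system came from 6 lists of 80 genes, of which 77 were measured. Of these, 8 rose and 8 fell, against a background of 6.48% higher and 13.9% lower over all genes, and their median log2 fold change was 0.09. The 16 became 5 without HE 1 (1 higher, 4 lower), 6 without NC 2, 8 without NC 5, 10 without HE 4 and 9 without HE 2, HE 3 or HE 5. Over all genes the share passing fell too, from 20.4% to 10.2% without HE 1, 9.87% without NC 2 and 11.2% without NC 5. It was 14.2% without HE 4, and 15.8%, 13.8% and 14.0% without HE 2, HE 3 and HE 5. Without NC 1, NC 3 or NC 4 the count was 14 to 22, with 19.4% to 21.0% of all genes passing. With slide as a fixed block, 2 passed, against 1.02% of all genes. Those 2 were Gipc1 and Maoa, and the other 14 had adjusted p of 0.0631 to 0.265 under that block (limma). Of the 4 other receptor genes 3 were measured and none passed. Htr5b, known from the habenula and CA1, was at -4.15 ± 0.69 in NC and -3.13 ± 0.62 in HE (SD, n = 5), a log2 fold change of 1.01 (limma, adjusted p = 0.08). Htr1f and Htr2b were at 0.19 and -0.01 (limma, adjusted p = 0.454 and 0.978). Htr3b, the partner subunit of Htr3a, was not above background on any array.

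Of the genes that make, carry and break down serotonin, 14 of 15 were measured, none rose and 2 fell, with a median log2 fold change of -0.55. Of the raphe markers named before, 6 of 9 belong to this list. Maoa, an enzyme that breaks down serotonin, fell by 0.50 on the log2 scale, from 1.19 ± 0.30 in NC to 0.69 ± 0.09 in HE (SD, n = 5; limma, adjusted p = 0.0321). Every HE array was below every NC array for Maoa, and its adjusted p was 0.0472 with slide as a fixed block (limma). That block sets NC 5, the highest array for Maoa at 1.66, against HE 1 and HE 2, which differ from it in Xist pattern too. Qdpr, which regenerates the cofactor of tryptophan hydroxylase, fell by 0.50 (limma, adjusted p = 0.0406), and its groups overlapped. Ddc, the decarboxylase shared with dopamine neurons, did not pass at a log2 difference of -2.07 (limma, adjusted p = 0.0575). It was high on NC 2 and NC 4, at 3.18 and 2.94, and between -0.92 and 1.32 elsewhere.

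Among the proteins of the Gi and Go pathway 8 of 9 were measured and 1 rose. Gnaz, an inhibitory G protein subunit, rose by 0.30, from 0.86 ± 0.13 to 1.17 ± 0.06 (SD, n = 5; limma, adjusted p = 0.0343). Gnai3 and Gnai2, which serve the same receptors, were at -0.23 and 0.21 (limma, adjusted p = 0.114 and 0.243). In the Gq pathway 2 of 13 rose and 2 fell. Plcb4, a phospholipase C, fell by 1.28, from 1.08 ± 0.49 to -0.21 ± 0.52 (SD, n = 5; limma, adjusted p = 0.018; 0.111 with slide as a fixed block). Itpr2, a receptor for inositol trisphosphate, fell by 0.36 (limma, adjusted p = 0.0199), though 1 of its 5 probes had the opposite sign. Gna11, a Gq subunit, rose by 0.31 (limma, adjusted p = 0.031), and Itpr1, named after its value was seen, rose by 0.73 (limma, adjusted p = 0.0473).

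In the Gs pathway, on which Htr6 and Htr7 act, 2 of 20 genes rose and 1 fell. Adcy8, an adenylyl cyclase driven by calcium, fell by 1.17, from -1.04 ± 0.33 to -2.21 ± 0.43 (SD, n = 5; limma, adjusted p = 0.0124), without overlap between the groups. Adcy2 and Adcy3, further adenylyl cyclases, rose by 0.64 and 0.70 (limma, adjusted p = 0.0206 and 0.0303), and both overlapped between the groups. The cyclases of the pathway therefore did not move one way. Of 19 receptor partners and regulators 3 rose and 3 fell. Adarb2, a relative of the enzymes that edit the Htr2c transcript, fell by 1.21 (limma, adjusted p = 0.0147). Gipc1 and Dlg4, which bind receptors at the membrane, rose by 0.49 and 0.80 (limma, adjusted p = 0.0171 and 0.023). With slide as a fixed block the adjusted p was 0.0426 for Gipc1, 0.0631 for Dlg4, 0.091 for Adarb2 and 0.0845 for Adcy8 (limma). The other 3, named after their values were seen, were Grk2, which rose by 0.40, and Adarb1 and Cc2d1b, which fell by 0.56 and 0.43 (limma, adjusted p = 0.0448, 0.0372 and 0.0455). Adarb1 is an enzyme that edits Htr2c, and Cc2d1b is a repressor of Htr1a transcription.

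**Figure D5:**
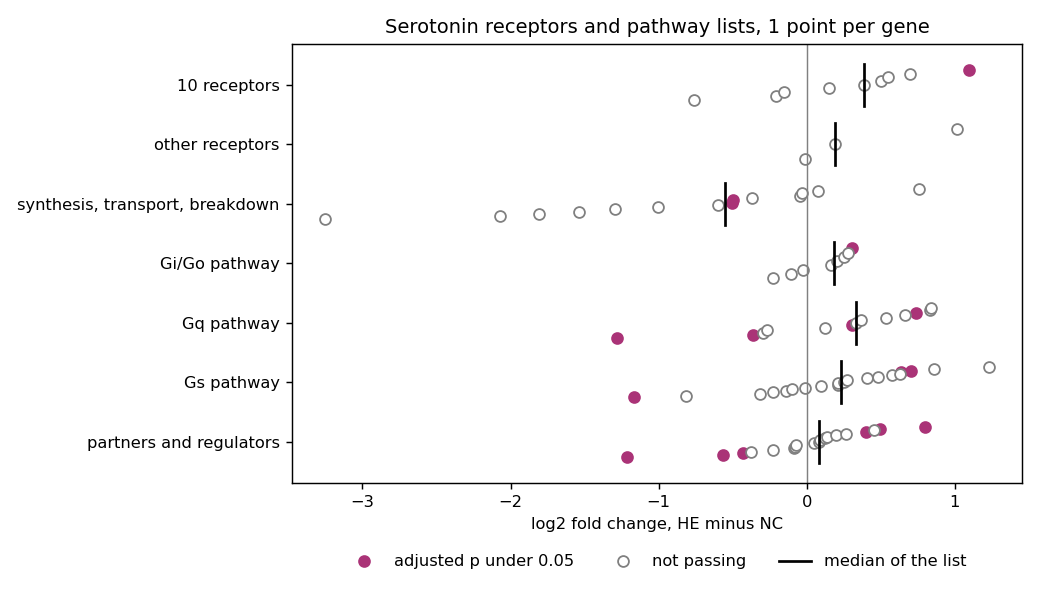
Log2 fold change (HE minus NC) of the 9 measured serotonin receptors and of the 77 measured genes of 6 pathway lists, 1 point per gene, with the median of each list as a line. Filled points passed the test; the receptors hold 1 of them, Htr6, and the lists hold 8 above and 8 below 0.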

How the data were processed

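Hippocampal RNA of 10 mice was measured on 1-colour Agilent arrays, and groups and replicate numbers were taken from the sample titles. Per the submitters' processing notes, Agilent Feature Extraction 10.7 made the deposited scanner files. Per the file headers these hold linear intensity for each spot: a processed signal that is already background-subtracted, the mean signal, the local background, and flags (well above background, saturated, outlier), a column of other units. The authors also deposited a value table in log2 units whose method is not given in the sources used here. Its columns correlated at 0.999999 with quantile-normalized log2 processed signals, and their medians were 7.0334 to 7.0337.

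Control spots and outlier flags were left out, spots of a probe were averaged, and log2 processed signal was taken relative to the array's 75th percentile. Probes well above background on at least 3 arrays of a group entered, and the probe with the highest mean stood for its gene. HE was compared with NC on all 10 arrays with lmFit and eBayes of limma 3.58.1 in R 4.3.3, two-sided, Benjamini-Hochberg adjusted over 20068 genes or 30981 probes. The fit was tested on simulated data. Precision is limited by there being 5 arrays a group.

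The receptors and all lists were chosen with earlier results of these data known. Named are all 10 receptors with every probe, the 3 genes of smallest p in each pathway list, the leading genes of marker lists, the 3 genes most like each of the 3 receptors of smallest p, and Xist. Alternatives were slide and replicate number as blocks, slide 2 alone, normexp with and without centring, quantile normalization, the value table, other filters, the mean of probes, another variance model, leaving out each array, high-Xist arrays only, Xist as a covariate, and leaving out NC 1, NC 2 and NC 4. Local background subtraction with an offset of 50 and the striatal and thalamic covariates were added after the data were seen. No mm9 genome or protein sequences were used here.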

Additional observations from a re-analysis of the deposited data

Results flagged for a closer look

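Among the 20 sets of 5 arrays examined (10 receptor probes in each group), 3 held an array whose gap to its nearest neighbour was a large share of the whole range, where chance gives about 1 in 20 sets. All 3 were NC arrays. Htr6 was at -5.535 on NC 5, while the other NC arrays lay between -4.917 and -4.717, and without NC 5 the log2 fold change of Htr6 was 0.95 (limma, adjusted p = 0.0408). Htr1d was at -7.118 on NC 4, where its probe was not well above background, against -5.945 to -5.48 on the other NC arrays. Htr2a was at -5.817 on NC 4, against -5.067 to -4.837 on the others, and without NC 4 its log2 fold change was 0.21 (limma, adjusted p = 0.26).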

How the results depend on the processing

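Of the 9 receptors measured, 1 passed in the processed signal. The count was 0 with slide as a fixed block, in slide 2 alone, under normexp with the median difference set to 0, among high-Xist arrays, without NC 1, NC 2 and NC 4, with local background subtracted and with the thalamic covariate. It was 2 under normexp (both lower), quantile normalization, the value table (both higher) and the striatal covariate, and 1 whichever array was left out. Of 10 receptor probes 1 passed: 0 in the same settings except local background subtraction, where the 1 passing was Htr7, lower in HE, 3 under normexp (all lower), 2 under quantile normalization, the value table and the striatal covariate, and 1 to 2 with an array left out (2 without HE 4, Htr6 higher and Htr7 lower). Of 77 pathway genes 16 passed, against 20.4% of all genes, and the all-gene share of each fit follows in brackets. With the slide block 2 passed (1.02%), and 0 among high-Xist arrays (0.384%) and with the thalamic covariate (0.0199%). Under normexp 30 passed (44.2%), 34 after centring it (34.4%), and 9 of 80 without the filter (12.8%). With an array left out 5 to 22 passed (9.87% to 21.0%), with 5 without HE 1, 6 without NC 2 and 8 without NC 5. With replicate number as a block, Htr6 kept 1.09 (limma, adjusted p = 0.0297) as the 1 receptor passing. In that fit 8 pathway genes passed (15.1% of all genes). Deviations of same-numbered arrays correlated at -0.08 to 0.13. These values show no pairing by number, but they cannot exclude a step shared by same-numbered arrays.

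Signs turned as follows. Under normexp and after centring it, the log2 fold change was -0.41 and -0.12 for Htr1a, -0.89 and -0.60 for Htr1b, -1.24 and -0.95 for Htr1d, -1.09 and -0.80 for Htr2a, -1.24 and -0.95 for Htr5a, and -0.71 and -0.42 for Htr6. Set against NC 3 and NC 5 alone, whose fitted backgrounds were near those of HE, the normexp difference, HE minus NC and given without a test, was 0.47 for Htr1a, 0.16 for Htr1b, 0.41 for Htr6, -0.08 for Htr1d, -0.06 for Htr2a and -0.24 for Htr5a. The cause of the negative values was not tested. The median of all genes was -0.29 under normexp, against -0.06, and setting it to 0 turned Htr2c to 0.0787 and Htr3a to 0.22. Local subtraction gave -0.0862 for Htr1d and -0.17 for Htr5a. Htr5a was also at -0.26 with the slide block and in slide 2, and at -0.14 without NC 1, NC 2 and NC 4. Htr2c was at -0.45 to 0.0129 with an array left out (positive without NC 2) and 0.51 with the thalamic covariate. The cause of the last 6 values was not tested. Spots with little signal over background, among them those of Htr1b, Htr1d, Htr2a, Htr5a and Htr6, limit the precision of these log2 values.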
